A study of Mus musculus with 2 samples.

Results

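Red blood cell barcodes were taken as all barcodes of the droplet-based single-cell RNA-Seq libraries in which over 50% of the unique molecular identifiers (UMIs, 1 per captured transcript) came from beta globin genes, whose symbols start with Hbb-, with no other filter. This rule gave 8680 of 27838 barcodes. Of these, 1902 of 10444 barcodes (18.2%, exact 95% interval 17.5% to 19.0%) were in the ATRA+agonist library and 6778 of 17394 (39.0%, 38.2% to 39.7%) in the DMSO vehicle library. The cells came from hindlimb muscle of female C57Bl/6J mice aged 24 months that had received 3 intramuscular injections over a week. The ATRA+agonist mice were given all-trans retinoic acid (ATRA) with the retinoid receptor agonists CD3254 and BMS961, and the control mice were given the DMSO vehicle alone. Each library pooled the cells of 2 mice, and live cells were sorted with propidium iodide before loading. The study removed low-quality cells and red blood cells with limits on detected genes (at least 300), mitochondrial reads and Hbb- reads (under 0.25%). With 1 library per group no difference between the groups could be tested, so each value is given with an exact interval that covers counting error only, and barcodes are not replicates of a treatment.

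A circulating red blood cell has no nucleus and makes no new RNA. Its youngest form, the reticulocyte, still carries transcripts from the erythroblast, mainly of globins, and loses them together with its mitochondria and ribosomes while it matures. Adult mouse hemoglobin pairs alpha chains (Hba-a1 and Hba-a2) with beta chains (Hbb-bs and Hbb-bt), and each chain holds a heme whose synthesis starts with the erythroid enzyme ALAS2 and needs iron delivered to the mitochondrion.

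In each library 1 UMI counts 1 transcript from its 3′ end, so that levels of different genes were compared without a correction for length. The red blood cell barcodes held 14807209 UMIs in the ATRA+agonist library (22.7% of its UMIs) and 52688401 in the DMSO vehicle library (48.2%). A barcode had a median of 8205 and 8027 UMIs, respectively, but only 77 and 89 detected genes, against 1922 and 1771.5 genes in all other barcodes. The 2 libraries shared 43 barcode sequences, of which 1 was a red blood cell barcode in both. Doublets were not called. Of the red blood cell barcodes, 26 (ATRA+agonist) and 148 (DMSO vehicle) had 300 or more genes, and they are described separately.

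The barcodes were chosen by their share of Hbb- UMIs, which is given as a description. Its median was 59.5% in the ATRA+agonist library and 60.7% in the DMSO vehicle library, and its highest value was 78.6% and 83.9%. Most other barcodes lay far below the limit, with 8084 of 8542 (ATRA+agonist) and 9058 of 10616 (DMSO vehicle) under 10% Hbb- UMIs. Just inside the limit, at 50% to 55%, 265 and 698 barcodes had a median of 3710 and 3288 UMIs and 4.28% and 5.94% of their UMIs outside hemoglobin. Just outside it, at 45% to 50%, 187 and 450 barcodes had a median of 2194 and 2289 UMIs and 9.06% and 16.3% of their UMIs outside hemoglobin.

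**Figure D1:**
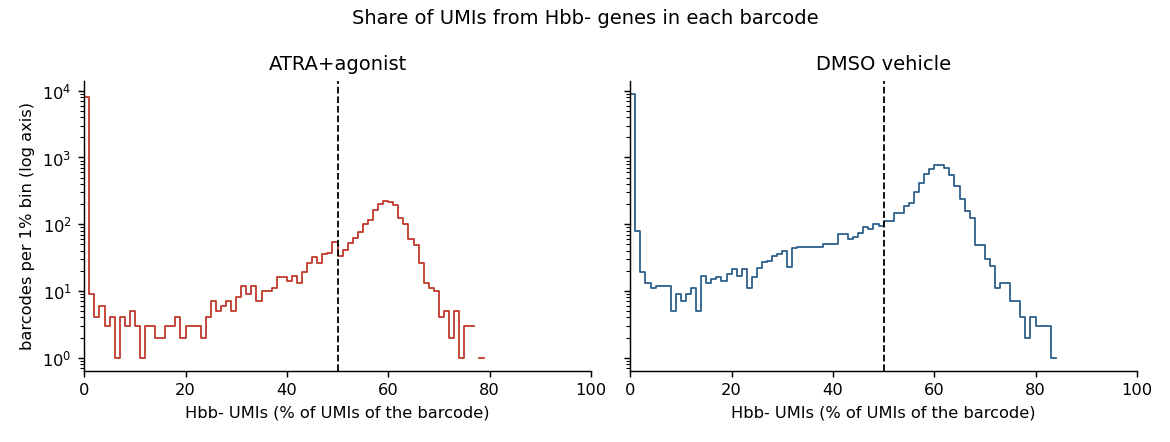
Number of barcodes (log axis) by the percentage of their UMIs that came from Hbb- genes, in 1% bins, in the ATRA+agonist library (left) and the DMSO vehicle library (right), with a dashed line at 50%. The barcodes over 50% form a hump with medians of 59.5% and 60.7%, apart from the many barcodes near 0, with a thin tail of barcodes between them.

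The 4 adult globin genes made up nearly all transcripts of these barcodes. Hbb-bs (mm10 chr7:103826534-103828096, minus strand), which chose the barcodes together with Hbb-bt, took 51.1% of the UMIs in the ATRA+agonist library and 51.5% in the DMSO vehicle library. Hbb-bt (chr7:103812524-103813996, minus strand), the neighbouring gene, took 8.41% and 9.21%. Hba-a1 (chr11:32283511-32284465, plus strand) took 21.3% and 20.6%, and Hba-a2 (chr11:32296489-32297298, plus strand) took 16.3% and 15.3%. The embryonic globins were nearly absent, with 4 and 10 UMIs of Hbb-y, 1 and 0 UMIs of Hba-x and 0 UMIs of Hbb-bh1 in both libraries. The theta globins Hbq1a and Hbq1b had 211 and 175 UMIs with ATRA+agonist and 486 and 973 UMIs with vehicle.

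The split between paralogs is uncertain, because the coding sequences of Hbb-bs and Hbb-bt differ at 1 of 441 bases and those of Hba-a1 and Hba-a2 at 1 of 426 bases in GENCODE M21. The 3′ ends, where the reads lie, differ more for the beta pair. Of the 50-base stretches in the last 300 bases of the Hbb-bt transcript, 36.3% also occur in Hbb-bs, whereas 73.7% of those of Hba-a2 occur in Hba-a1.

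The regions just before the start sites of the beta globin genes and of Alas2 are shown because these 3 transcripts lead the results below. Each line gives the 130 bases before the start site as in the RefSeq promoter table (GRCm38.p6), read in the direction of the gene. These start sites differ from the ends of the GENCODE gene positions given in the text. The Hbb-bs window therefore lies inside its GENCODE gene, and those of Hbb-bt and Alas2 overlap theirs in part. Capitals mark the letters CACCC, the box CCAAT, the form ATATAA of the TATA box and the form AGATAA of the GATA site on either strand, and neighbouring matches run together.
Hbb-bs, chr7:103827929-103828058, minus strand: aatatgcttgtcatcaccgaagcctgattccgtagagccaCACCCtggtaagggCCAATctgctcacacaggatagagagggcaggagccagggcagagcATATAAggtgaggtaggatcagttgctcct
Hbb-bt, chr7:103813924-103814053, minus strand: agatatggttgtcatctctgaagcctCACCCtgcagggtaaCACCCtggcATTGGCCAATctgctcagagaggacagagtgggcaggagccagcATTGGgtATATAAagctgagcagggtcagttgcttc
Alas2, chrX:150547287-150547416, plus strand: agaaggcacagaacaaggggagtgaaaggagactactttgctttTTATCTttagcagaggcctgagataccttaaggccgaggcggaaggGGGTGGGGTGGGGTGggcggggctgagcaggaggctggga
Both beta globin genes had CACCC, then the box CCAAT and then the letters ATATAA, with CACCC starting 90 bases before the start site in Hbb-bs and 104 and 89 bases before it in Hbb-bt. Alas2 had CACCC 3 times on the opposite strand and AGATAA, a form of the site that GATA factors bind, 86 bases before its start site, also on the opposite strand. Of 32851 promoter windows of this length, 33.7% held CACCC, 22.4% CCAAT, 4.75% ATATAA and 4.79% AGATAA. These matches are letters in a window, and binding was not measured.

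The globin make-up differed between the libraries, and its difference from the other barcodes depended on which of them were taken. Hbb-bt gave 14.1% of the adult beta globin UMIs in the ATRA+agonist and 15.2% in the DMSO vehicle red blood cell barcodes. In the other barcodes it gave 8.41% and 11.5%, made up of 12.01% and 14.7% in those with 300 or more genes and 3.71% and 3.89% in those with under 300 genes. Alpha globin gave 38.7% and 37.1% of the adult globin UMIs in the red blood cell barcodes against 45.1% and 43.2% in the other barcodes, a share that the rule itself keeps low by asking for beta globin. The direction turned with the kind of barcode, since the alpha share was 36.7% and 35.5% in other barcodes with 300 or more genes and 53.2% and 55.7% in those with under 300 genes.

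Outside hemoglobin 432681 UMIs (2.92%, 2.91% to 2.93%) remained in the ATRA+agonist and 1780375 UMIs (3.38%, 3.37% to 3.38%) in the DMSO vehicle red blood cell barcodes, a median of 169.5 and 198 per barcode. These UMIs are the base of all shares and CPM values (counts per 1000000 UMIs) below. They were concentrated in few genes. The 10 most abundant genes held 28.5% and 26.4% of them, against 7.21% and 7.48% for the 10 most abundant genes of the other barcodes, and the 100 most abundant held 75.2% and 72.3%. At least 1 UMI was seen for 9165 and 13304 genes, and 3603 genes had 20 or more UMIs over both libraries.

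Relative to the other barcodes of the same library, 188 of the 3603 genes (5.22%) were at least 4-fold higher in the red blood cell barcodes of both libraries and 1307 (36.3%) at least 4-fold lower, with 10 CPM added to both sides. The 188 genes held 68.8% (ATRA+agonist) and 66.6% (vehicle) of the non-hemoglobin UMIs. Of these genes 47 belonged to the 7 erythroid lists below. Among the 10 genes with the largest difference were Alas2, Bpgm, Ube2l6, Mkrn1, Apol11b, Tent5c, Slc25a37, Isg20 and the Fam220a entry ENSMUSG00000118332, with mean log2 differences from 9.14 down to 7.04. The comparison follows from how the barcodes were chosen and carries no test. Of 132 of the 188 genes found in the promoter table, with 179 windows of 130 bases, 46.4% of windows held CACCC, 31.8% CCAAT, 6.15% AGATAA and 1.12% ATATAA, beside 33.7%, 22.4%, 4.79% and 4.75% of all windows. CACCC and CCAAT were thus more frequent than in all windows. AGATAA, found in 11 windows, was near its share of all windows, and ATATAA, found in 2 windows, was less frequent. A gene can have several windows, and no test was made.

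Together the 7 erythroid lists took 32.9% of the non-hemoglobin UMIs with ATRA+agonist and 32.2% with vehicle, against 1.69% and 1.87% in the other barcodes. The 12 lists of markers of other muscle cell types took 0.462% and 0.456%, against 2.81% and 2.86%. RNA that stays in the nucleus was low, with 0.172% and 0.215% of UMIs from 5 nuclear long noncoding RNAs against 2.28% and 2.43%. All 5 were at least 4-fold lower, beside 36.3% of all genes tested. Malat1, the most abundant of them, stood at 1562 and 2021 CPM against 21118 and 22660 CPM. The lead of the globins follows from the rule. Alas2, an erythroid marker that the rule did not name, was the most abundant gene outside the globins and the mitochondrial genome in both libraries, and no list of another cell type exceeded its level in the other barcodes by more than counting error, so that these levels did not go against the label.

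**Figure D2:**
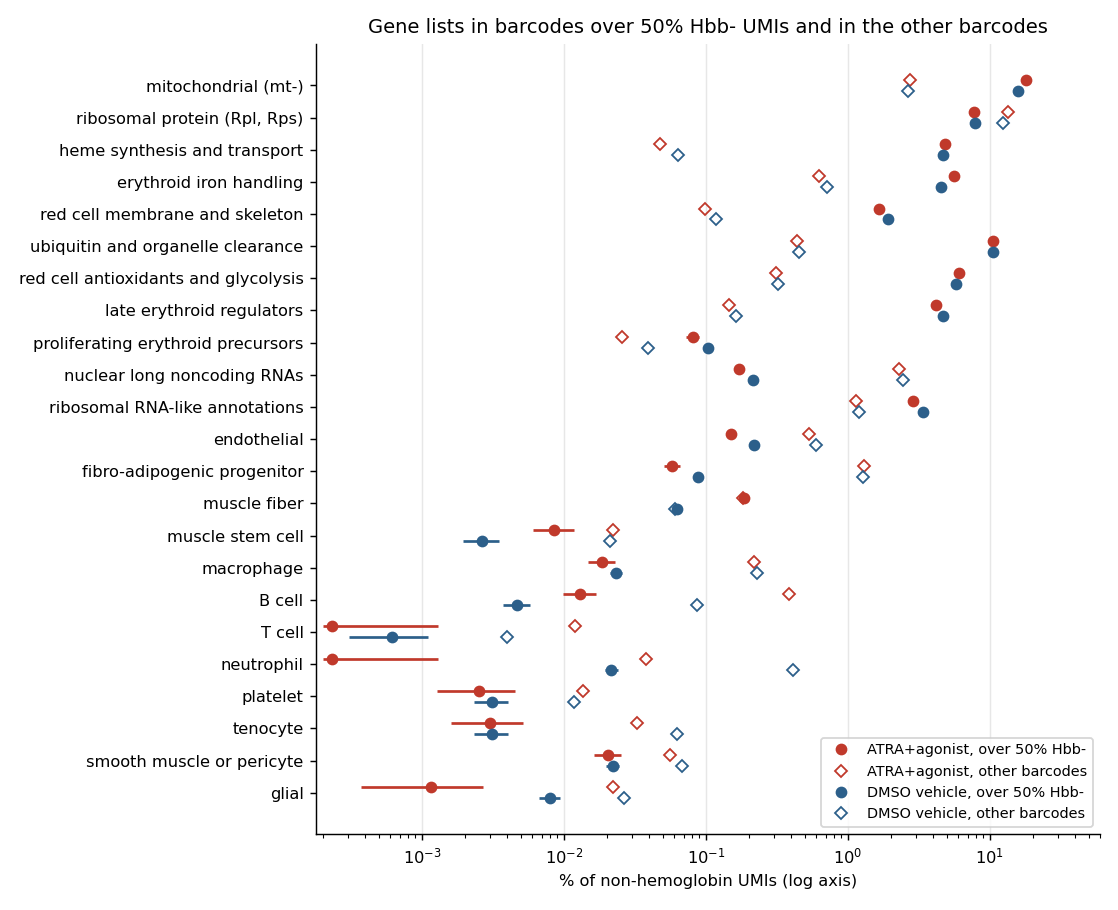
Percentage of non-hemoglobin UMIs (log axis) in each gene list, in barcodes over 50% Hbb- UMIs (filled circles with exact 95% intervals, cut at the left edge) and in the other barcodes (open diamonds) of the ATRA+agonist (red) and DMSO vehicle (blue) libraries. The 7 erythroid lists and the mitochondrial genes lie to the right of the diamonds, and the nuclear and most other cell type lists lie to their left.

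The heme synthesis and transport list was led by 1 gene. Alas2 (chrX:150547375-150570638, plus strand), which catalyses the first step of heme synthesis in erythroid cells, stood at 34709 CPM (34156 to 35269) with ATRA+agonist and 32394 CPM (32130 to 32659) with vehicle, against 24.1 and 93.2 CPM in the other barcodes. Fech, which inserts iron into the finished ring, stood at 5424 and 6189 CPM. Slc25a39, a mitochondrial carrier needed for heme synthesis, stood at 5189 and 5406 CPM, and Blvrb, a biliverdin reductase, at 2686 and 2399 CPM. Of 18 listed genes 13 had 20 or more UMIs. Of these 6 were at least 4-fold higher and 1 at least 4-fold lower than in the other barcodes. The shares of all genes tested were 5.22% and 36.3%. The median log2 difference of the 13 was 1.41, beside -1.85 over all genes tested. The whole list held 4.84% and 4.70% of UMIs against 0.0476% and 0.0638%, and Alas2 alone 3.47% and 3.24%.

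Erythroid iron handling took 5.62% (5.55% to 5.69%) of UMIs with ATRA+agonist and 4.50% (4.47% to 4.53%) with vehicle. Ftl1, the ferritin light chain, stood at 32474 CPM (31940 to 33016) and 22629 CPM (22409 to 22851), and Fth1, the ferritin heavy chain, at 13060 and 10249 CPM. In the other barcodes Ftl1 stood at 2086 and 2111 CPM. Slc25a37 (mitoferrin 1), which carries iron into the mitochondrion, stood at 6071 and 7566 CPM, Glrx5, which acts in iron-sulfur cluster assembly, at 2101 and 2200 CPM, and Ncoa4, the receptor that sends ferritin to autophagy, at 1937 and 1910 CPM. Tfrc, the transferrin receptor by which erythroid precursors take up iron, stood at 16.2 CPM (6.50 to 33.3) and 52.8 CPM (42.7 to 64.6) against 29.3 and 42.7 CPM. At least 1 Tfrc UMI was found in 0.368% and 0.988% of red blood cell barcodes (median 169.5 and 198 non-hemoglobin UMIs), against 12.9% and 13.6% of the other barcodes with 300 or more genes (median 4708 and 4393). Thinned to 100 non-hemoglobin UMIs the shares were 0.0721% and 0.271% against 0.401% and 0.462%. In CPM Tfrc was below the other barcodes with ATRA+agonist, on few UMIs, and above them with vehicle. At 100 UMIs its detection was lower than theirs in both libraries. Tfrc was thus not raised in the way of the leading genes of the list.

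Alas2, Fth1 and Ftl1 share a control element in the messenger RNA, the iron-responsive element of the 5′ untranslated region, a hairpin with the loop CAGTGN. The 30 bases around the loop in the GENCODE M21 transcripts are given with the loop in capitals, because these 3 transcripts were the leading ones of the heme and iron lists.
Alas2, bases 84 to 113 of transcript Alas2-201: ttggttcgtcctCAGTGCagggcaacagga
Fth1, bases 87 to 116 of transcript Fth1-201: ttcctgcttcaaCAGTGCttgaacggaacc
Ftl1, bases 78 to 107 of transcript Ftl1-201: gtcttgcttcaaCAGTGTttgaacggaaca
The letters CAGTG alone are common, and 25.1% of 50507 coding transcripts hold them in the 5′ untranslated region. Translation and the use of the element were not measured.

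Of the erythroid lists, ubiquitin and organelle clearance was the largest, with 10.5% of UMIs in both libraries against 0.434% and 0.454% in the other barcodes. Ubb, which encodes ubiquitin, stood at 28853 CPM (28349 to 29363) with ATRA+agonist and 20554 CPM (20344 to 20766) with vehicle. Mkrn1, a ubiquitin ligase, stood at 23244 and 25090 CPM, and Ube2l6, a conjugating enzyme for ubiquitin and ISG15, at 16451 and 20318 CPM. Bnip3l (NIX), which marks mitochondria of reticulocytes for removal, stood at 10689 and 11909 CPM against 130 and 157 CPM. Of 18 genes with 20 or more UMIs 12 were at least 4-fold higher and 1 at least 4-fold lower. The shares of all genes tested were 5.22% and 36.3%. The median log2 difference of the 18 was 3.66. Alox15, the reticulocyte lipoxygenase, had no UMI in either library.

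Transcripts for red cell metabolism took 6.07% and 5.78% of UMIs. Bpgm, whose enzyme makes the bisphosphoglycerate that lowers the oxygen affinity of hemoglobin, stood at 26206 and 24681 CPM against 24.5 and 65.8 CPM. The antioxidant genes Gpx1 and Prdx2 stood at 20239 and 19459 CPM and at 5092 and 3757 CPM, and Car2, a carbonic anhydrase, at 2713 and 2173 CPM. Of 18 measured genes 8 were at least 4-fold higher and 4 at least 4-fold lower, beside 5.22% and 36.3% of all genes tested. Their median log2 difference was -0.90, beside -1.85 over all genes tested. Pklr, the red cell pyruvate kinase gene, had no UMI in either library.

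Membrane and skeleton genes took 1.66% and 1.91% of UMIs. Epb41 (protein 4.1) was the most abundant at 8940 and 10404 CPM, followed by Cd24a, a surface protein, at 3090 and 3159 CPM. Slc4a1, the band 3 anion exchanger, stood at 673 CPM (597 to 754) and 1048 CPM (1001 to 1096). Of 23 measured genes 10 were at least 4-fold higher and 0 at least 4-fold lower, beside 5.22% and 36.3% of all genes tested. Their median log2 difference was 2.05.

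Late erythroid regulators took 4.18% and 4.67% of UMIs. Tent5c, a poly(A) polymerase, stood at 10698 and 13015 CPM, Isg20, an exonuclease, at 6030 and 4211 CPM, and Ucp2, a mitochondrial carrier, at 2064 and 1856 CPM. Among 15 measured genes 6 were at least 4-fold higher and 1 at least 4-fold lower, beside 5.22% and 36.3% of all genes tested. The transcription factors Gata1 and Klf1, which drive the erythroid programme in the nucleated precursors, and the erythropoietin receptor Epor had fewer than 20 UMIs each over all 8680 barcodes.

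Transcripts of dividing precursors were a small part, at 0.0811% and 0.103% of UMIs, but above the 0.0255% and 0.0391% of the other barcodes. Nusap1, a spindle protein, led the list with 723 and 876 CPM against 6.84 and 17.6 CPM. It was the 1 gene of 6 measured that was at least 4-fold higher, and 1, Hmgb2, was at least 4-fold lower. The shares of all genes tested were 5.22% and 36.3%. Mki67, the proliferation marker, had 8 and 101 UMIs (18.5 CPM, 7.98 to 36.4, and 56.7 CPM, 46.2 to 68.9) against 14.5 and 36.7 CPM. Birc5 stood at 23.1 and 23.0 CPM, Rrm2 at 23.1 and 12.9 CPM, and Hmgb2 at 13.9 and 34.3 CPM, the last against 153 and 211 CPM. Cdk1 had no UMI.

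Of the 10 most abundant genes outside the mitochondrial and ribosomal protein genes, 3 were in no erythroid list. Gm42418 (chr17:39846958-39848788, plus strand), an annotation that collects ribosomal RNA reads, stood at 26019 and 29863 CPM against 10107 and 10750 CPM. Oaz1, the antizyme that regulates polyamine synthesis, stood at 22802 and 22121 CPM against 677 and 686 CPM, and Tpt1, a translationally controlled protein, at 21295 and 20961 CPM against 5099 and 5579 CPM. Ribosomal protein genes together took 7.78% and 7.89% of UMIs against 13.4% and 12.3%. Of 85 measured 13 were at least 4-fold lower and 1, Rpl41 (8124 and 8905 CPM), at least 4-fold higher. Over all genes tested 36.3% were at least 4-fold lower and 5.22% at least 4-fold higher. The median log2 difference of the ribosomal protein genes was -1.47, beside -1.85 over all genes tested.

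Messenger RNAs of the mitochondrial genome took 18.0% (17.9% to 18.1%) of the non-hemoglobin UMIs with ATRA+agonist and 15.7% (15.7% to 15.8%) with vehicle, against 2.73% and 2.66% in the other barcodes. The direction turned with the kind of other barcode. Their share was 2.63% and 2.52% in those with 300 or more genes and 34.6% and 35.3% in those with under 300 genes. Against all other barcodes together, all 13 mitochondrial genes were at least 4-fold higher in both libraries, beside 5.22% of all genes tested. Their median log2 difference was 2.63. The share varied widely among red blood cell barcodes, from 5.16% at the 5th percentile over a median of 21.3% to 62.0% at the 95th percentile with ATRA+agonist, and from 4.50% over 17.7% to 55.2% with vehicle. After each barcode was thinned to 100 non-hemoglobin UMIs, which left out 515 and 1247 shallower barcodes, the variance of the mitochondrial count was 13.7 and 12.3 times that of binomial sampling. The same figure was 2.01 and 1.82 for Alas2, 2.49 and 1.99 for Bpgm, and 1.15 to 1.19 for Fech. This figure grows with the mean count, which was 20.8 and 18.8 of 100 UMIs for the 13 mitochondrial genes together and 4.13 and 3.87 for Alas2, so that it does not rank the measures.

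Detection in single barcodes was broad for the leading genes. At least 1 Alas2 UMI was found in 84.4% (ATRA+agonist) and 93.1% (vehicle) of red blood cell barcodes, against 1.75% and 5.57% of other barcodes with 300 or more genes, and in 91.8% and 94.0% against 0.138% and 0.903% at 100 UMIs. At that depth Ube2l6 was found in 77.8% and 84.8%, Bpgm in 73.5% and 78.6%, and Mkrn1 in 70.2% and 76.8%, all against under 1% of the other barcodes. Slc4a1 was found in 3.46% and 6.24%, against 0% (exact 95% interval up to 0.0462%) and 0.129%.

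The barcodes were also compared along their number of UMIs, which is largely their amount of globin transcript. They were split into 5 bins, under 2000 (217 barcodes with ATRA+agonist and 542 with vehicle), 2000 to 4999 (397 and 1229), 5000 to 7999 (311 and 1598), 8000 to 11999 (635 and 2599) and 12000 or more UMIs (342 and 810). The bins were set after seeing the data, and the barcodes of a bin share 1 library.

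Hbb-bt was a small part of beta globin in the barcodes with few UMIs and a larger part in those with many. Its share of the adult beta globin UMIs was 1.80%, 3.06%, 6.97%, 15.2% and 19.5% from the lowest to the highest bin with ATRA+agonist, and 2.39%, 4.54%, 10.9%, 17.0% and 19.7% with vehicle. In mean UMIs per barcode Hbb-bs went from 747 to 6568 with ATRA+agonist and from 738 to 6802 with vehicle, and Hbb-bt from 13.7 to 1593 and from 18.0 to 1674. The alpha globin share moved little by comparison, within 37.1% to 40.0% and 36.5% to 38.7%.

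The mitochondrial share ran the other way, at 48.2%, 39.5%, 27.8%, 16.3% and 9.41% with ATRA+agonist and at 43.8%, 33.0%, 22.6%, 13.7% and 8.05% with vehicle. The mean number of mitochondrial UMIs per barcode was nearly level, at 34.8, 37.7, 40.8, 42.3 and 46.4 and at 32.9, 37.8, 39.4, 43.7 and 48.8. All non-hemoglobin UMIs together went from 72.1 to 493 and from 75.1 to 606 per barcode over the same bins. The erythroid lists went from 6.06 to 193 and from 7.78 to 221 UMIs per barcode, and from 8.40% to 39.1% and from 10.4% to 36.5% of the non-hemoglobin UMIs. The lists of other cell types went from 0.364 to 2.12 and from 0.456 to 2.82 UMIs per barcode. As a share they moved much less, within 0.430% to 0.579% and 0.391% to 0.684%.

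**Figure D3:**
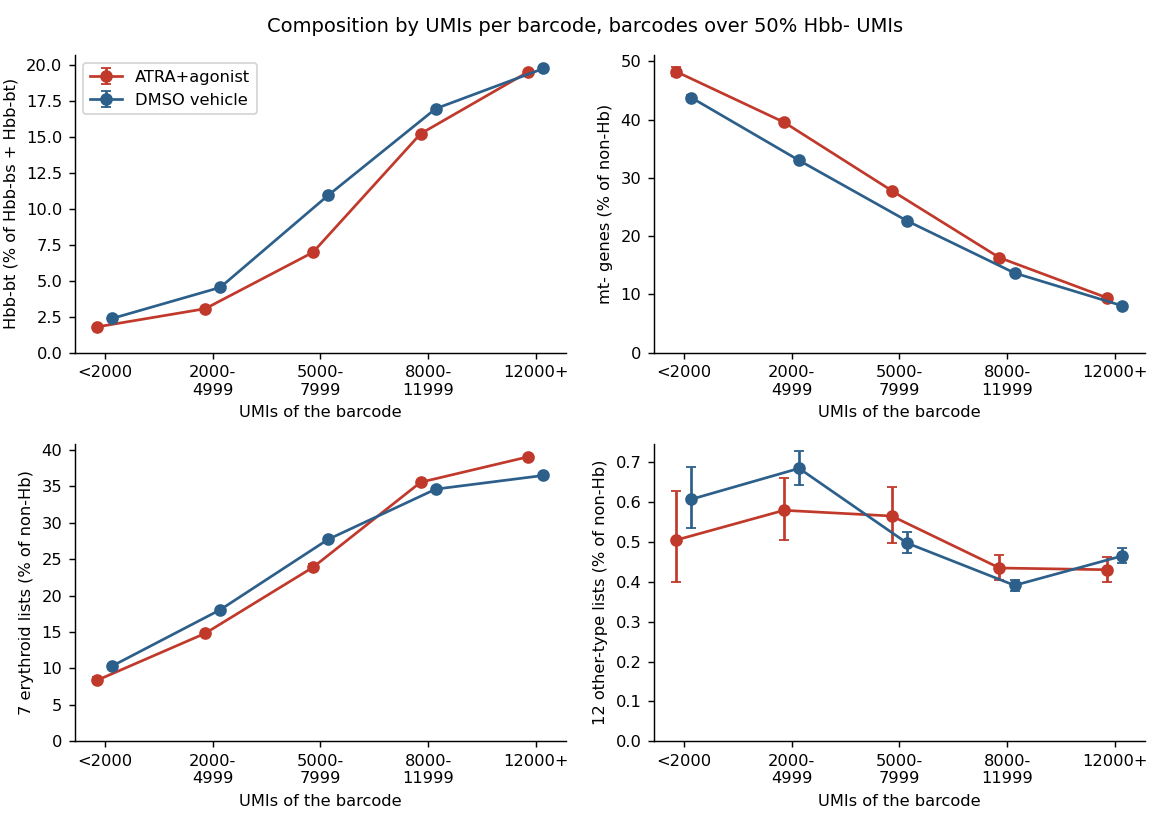
Shares in 5 bins of UMIs per barcode (x axis) among barcodes over 50% Hbb- UMIs, for Hbb-bt among beta globin UMIs and for mitochondrial genes, the 7 erythroid lists and 12 lists of other cell types among non-hemoglobin UMIs, in the ATRA+agonist (red) and DMSO vehicle (blue) libraries with exact 95% intervals. From the lowest to the highest bin Hbb-bt goes from 1.80% and 2.39% to 19.5% and 19.7% and the mitochondrial share from 48.2% and 43.8% to 9.41% and 8.05%.

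Between barcodes with 12000 or more and those with under 5000 UMIs, 226 of 963 genes with 100 or more UMIs (23.5%) were at least 2-fold higher in both libraries and 27 (2.8%) at least 2-fold lower, with 50 CPM added. Among the erythroid genes with 100 or more UMIs 0 was at least 2-fold lower. At least 2-fold higher were 5 of 8 heme genes, 2 of 7 iron genes, 9 of 15 membrane genes, 9 of 15 clearance genes, 9 of 12 metabolism genes and 6 of 12 regulators. The genes at least 2-fold lower included all 13 mitochondrial genes, both annotations that collect ribosomal RNA reads and 3 of 79 ribosomal protein genes.

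The largest difference was that of Gpx1, at 692 CPM under 5000 UMIs and 32974 CPM at 12000 or more with ATRA+agonist, and at 1860 and 32116 CPM with vehicle. Car2 went from 150 to 5131 CPM and from 248 to 3968 CPM. Mpp1, a membrane scaffold protein, went from 56.1 to 2021 CPM and from 93.6 to 2376 CPM, and Prdx2 from 655 to 8319 CPM and from 402 to 7329 CPM. Prxl2a, Cmas, an enzyme of sialic acid metabolism, and Mpc2, a subunit of the mitochondrial pyruvate carrier, were also among the 8 largest. Prxl2a and Cmas had log2 differences, with 50 CPM added, of 4.06 and 3.78 and of 4.50 and 3.59. Mpc2 went from 0 UMIs to 1090 CPM with ATRA+agonist and from 88.1 to 1133 CPM with vehicle.

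As a share of non-hemoglobin UMIs, Alas2 and Ftl1 were highest in the middle bins. Alas2 stood at 8177, 22189, 39256, 42154 and 31475 CPM from the lowest to the highest bin with ATRA+agonist, and at 13489, 30808, 41920, 34030 and 26248 CPM with vehicle. Ftl1 stood at 14246, 37344, 44840, 35242 and 27025 CPM and at 12949, 22318, 28149, 23196 and 19431 CPM. Both peaked at 5000 to 7999 UMIs except Alas2 with ATRA+agonist, which peaked 1 bin later. In UMIs per barcode Alas2 did not peak in the middle but went from 0.590 over 2.11, 5.77 and 10.9 to 15.5 with ATRA+agonist and from 1.01 over 3.53, 7.30 and 10.9 to 15.9 with vehicle. Bpgm went from 2875 to 35149 CPM and from 3415 to 28865 CPM, and Ubb from 10221 to 36411 CPM and from 5406 to 33349 CPM. Tpt1 went the other way as a share, from 34815 to 16224 CPM and from 36119 to 16325 CPM, while its UMIs per barcode went from 2.51 to 8.01 and from 2.71 to 9.89.

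**Figure D4:**
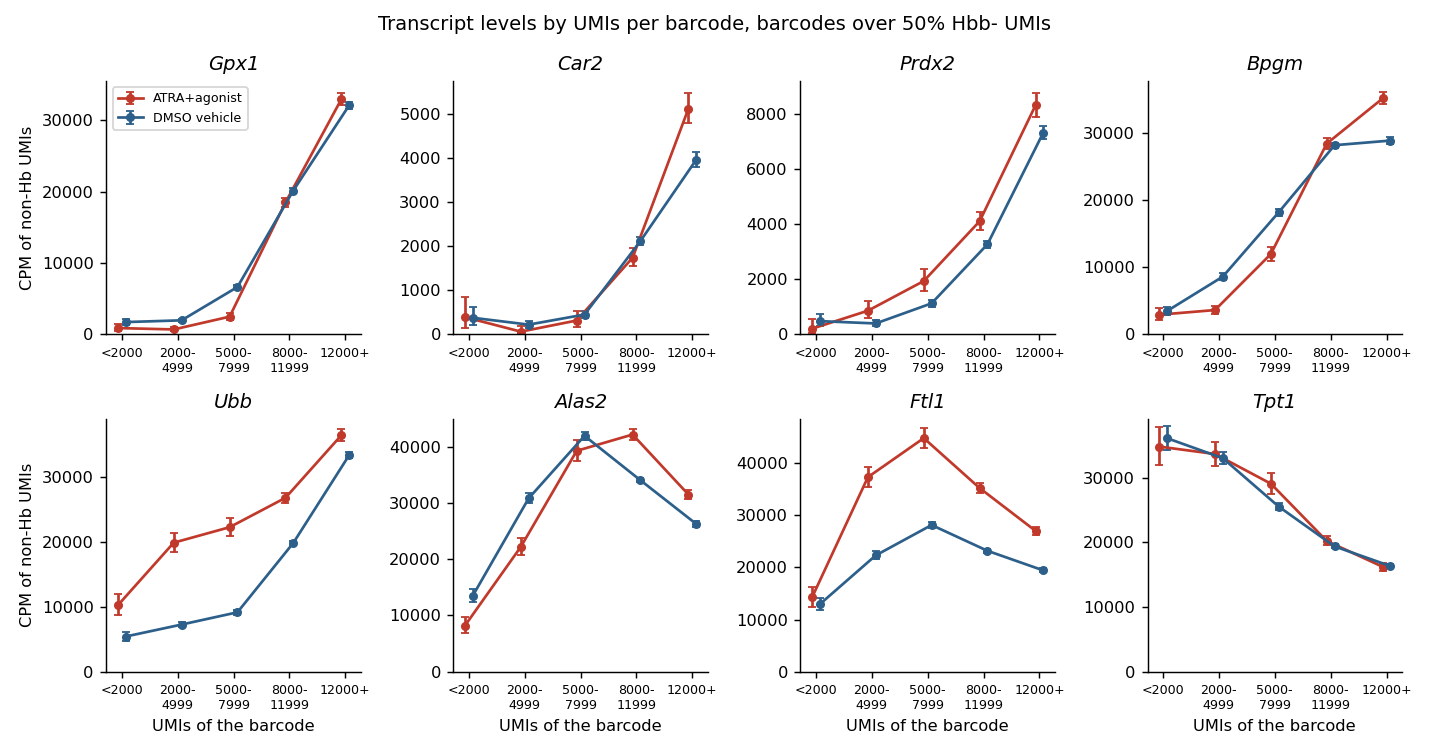
Level of 8 transcripts (CPM of non-hemoglobin UMIs, linear axes from 0) in 5 bins of UMIs per barcode, in the ATRA+agonist (red) and DMSO vehicle (blue) libraries with exact Poisson 95% intervals. Gpx1, Car2, Prdx2, Bpgm and Ubb are highest in the bin with the most UMIs, Alas2 and Ftl1 on this scale in a middle bin, and Tpt1 in the bin with the fewest.

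Transcripts of other muscle cells were present at low levels. Endothelial markers took 0.151% and 0.218% of the non-hemoglobin UMIs against 0.531% and 0.597% in the other barcodes, and markers of fibro-adipogenic progenitors 0.0578% and 0.0872% against 1.30% and 1.28%. Macrophage markers took 0.0185% and 0.0231% against 0.218% and 0.229%, and B cell markers 0.0129% and 0.00466% against 0.384% and 0.0863%. Markers of smooth muscle or pericytes took 0.0203% and 0.0220%, of muscle stem cells 0.00855% and 0.00264%, of glia 0.00116% and 0.00792%, of tenocytes 0.00300% and 0.00309%, of platelets 0.00254% and 0.00309% and of T cells 0.000231% and 0.000618%, each below its share in the other barcodes. Among these lists 1 of 5 muscle stem cell markers (Myod1), 1 of 5 tenocyte markers (Scx) and 4 of 7 platelet markers (Gp9, Gp1bb, Tubb1 and Treml1) had no UMI, and every marker of the other 9 lists had at least 1. Other markers of the same lists were present. Des had 35 and 37 UMIs and Pf4 9 and 43 UMIs, and Ppbp, with 1 and 7 UMIs, stood at 2.31 and 3.93 CPM against 1.30 and 0.788 CPM in the other barcodes.

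The few barcodes with 300 or more genes had a different content. The 26 with ATRA+agonist and 148 with vehicle had a median of 464 and 396 genes and 10.4% and 10.8% of UMIs outside hemoglobin, against 2.75% and 3.12% in the rest of the red blood cell barcodes. Nuclear long noncoding RNAs made up 1.31% and 1.34% of their non-hemoglobin UMIs against 0.0724% and 0.0784%, and endothelial markers 0.799% and 0.956% against 0.0940% and 0.129%. Muscle fiber markers made up 1.21% against 0.0960% with ATRA+agonist and 0.130% against 0.0539% with vehicle. Their erythroid lists came to 16.6% and 17.7%, against 34.3% and 34.0%. Outside the red blood cell barcodes endothelial markers took 0.531% and 0.597% and fiber markers 0.182% and 0.0605%, less than in these few barcodes. No other list of another cell type was higher in these few barcodes than outside the red blood cell barcodes in both libraries. Fibro-adipogenic, smooth muscle or pericyte, B cell and platelet lists were also above the rest of the red blood cell barcodes in both libraries. For B cells and platelets the ATRA+agonist gap was small, 0.0144% against 0.0128% and 0.00287% against 0.00251%. The label was not tested for these few barcodes.

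The last comparison set the red blood cell barcodes of the 2 libraries beside each other. Of 3603 genes 46 (1.28%) were at least 2-fold higher and 185 (5.13%) at least 2-fold lower with ATRA+agonist. The median log2 ratio of all genes tested was -0.15, against 0.01 for the same genes in the other barcodes, and with median-of-ratios scaling, which sets the typical gene to a ratio of 1, the counts were 81 higher and 134 lower. Among the 188 genes that were at least 4-fold higher than in the other barcodes, 3 (1.6%) were at least 2-fold higher and 5 (2.66%) at least 2-fold lower.

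Genes with the largest ratios were mostly known from other cells, and all of those named here but Ccl5 had a ratio of the same sign outside the red blood cell barcodes. Acta1, the actin of muscle fibers, had 258 UMIs (596 CPM) with ATRA+agonist and 285 UMIs (160 CPM) with vehicle, a log2 ratio of 1.90 (1.65 to 2.15), beside 1.64 (1.60 to 1.68) in the other barcodes. The fiber genes Tnnc2, Tpm2, Tnnt3 and Tnni2 followed with 1.72, 1.57, 1.47 and 1.45, beside 1.61, 0.77, 1.55 and 1.51. In barcodes with under 300 genes these 5 ratios, with 10 CPM added, came to between 0.54 and 0.86, against 1.32 to 1.83 in all red blood cell barcodes. The fiber list held 0.186% and 0.0621% of non-hemoglobin UMIs, and 0.182% and 0.0605% in the other barcodes, with 7 of its 8 measured genes at least 2-fold higher, and its part in these ratios was not tested.

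On the low side S100a9, a neutrophil gene, had 1 UMI with ATRA+agonist and 206 with vehicle, a log2 ratio of -5.65 (-10.96 to -3.15) beside -3.55 in the other barcodes. S100a8, its partner, had 0 UMIs against 150 and was at least 12-fold lower when 3 UMIs are allowed for the 0. The exact interval of its log2 ratio ended at -3.29, a weaker bound, beside a ratio of -3.44 in the other barcodes. Once barcodes with 300 or more genes were left out, the ratios with 10 CPM added went from -3.35 to -2.30 for S100a9 and from -3.24 to -1.99 for S100a8. Gbp2, an interferon-induced GTPase, had 3 against 240 UMIs and a ratio of -4.28 (-6.57 to -2.72) beside -1.77. Gm32051 had 17 against 441 UMIs and a ratio of -2.66 (-3.45 to -1.96) beside -2.96. Ccl5, a chemokine of T cells, had 4 against 129 UMIs and a ratio of -2.97 (-4.87 to -1.58) beside 0.60, and with 10 CPM added went from -2.10 to -0.05 once barcodes with 300 or more genes were left out. The neutrophil list as a whole held 0.000231% and 0.0216% of non-hemoglobin UMIs, and 0.0381% and 0.409% in the other barcodes.

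The 188 genes that were at least 4-fold higher than in the other barcodes had library ratios on both sides of 0. Rec114, a gene known for meiotic recombination, had the highest of these ratios, with 882 UMIs (2038 CPM) against 1537 UMIs (863 CPM) and a log2 ratio of 1.24 (1.12 to 1.36). Irf7, an interferon regulatory factor, had a ratio of 0.997 (0.72 to 1.27), and the unnamed genes A230059L01Rik, Gm46515 and Gm10371 ratios of 1.18, 1.18 and 0.94. The lowest were Gm32051 at -2.66, then Cox6b2, a cytochrome oxidase subunit, at -1.52 (-1.86 to -1.20), and Cmas at -1.16 (-1.33 to -1.005). Apol11b, an apolipoprotein L, had 1728 UMIs (3994 CPM) against 15288 UMIs (8587 CPM) and a ratio of -1.10 (-1.18 to -1.03), and its relative Apol11a one of -1.16 (-1.69 to -0.67). Apol11b was found in 29.9% of ATRA+agonist and 55.4% of vehicle barcodes, and at 100 UMIs in 24.2% and 43.8%.

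Among the leading erythroid genes, Ftl1 (0.52), Isg20 (0.52), Ubb (0.49), Prdx2 (0.44) and Fth1 (0.35) had log2 ratios above 0, and Slc4a1 (-0.64), Slc25a37 (-0.32), Ube2l6 (-0.30) and Tent5c (-0.28) below 0, with the same sign under median-of-ratios scaling and with equal weight for the 5 UMI bins. The ratios of Alas2 (0.10), Bpgm (0.09), Gpx1 (0.06), Fech (-0.19), Mkrn1 (-0.11) and Bnip3l (-0.16) changed sign under 1 of these 2 settings and carry no direction. All 13 mitochondrial genes were under 2-fold, with a median log2 ratio of 0.21.

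The libraries also differed at a matched number of UMIs per barcode. In each of the 5 bins Hbb-bt held a smaller part of beta globin with ATRA+agonist than with vehicle, with the widest gap at 5000 to 7999 UMIs, 6.97% (6.93% to 7.02%) against 10.9%, and the narrowest at 12000 or more UMIs. The mitochondrial share was higher with ATRA+agonist in each bin, with 27.8% against 22.6% at 5000 to 7999 UMIs. Mitochondrial UMIs per barcode did not go one way, since they were higher with ATRA+agonist in 2 of the 5 bins and lower in 3, while non-hemoglobin UMIs per barcode were lower with ATRA+agonist in each bin, with 147 against 174 at 5000 to 7999 UMIs. Ubb stood at 22245 against 9139 CPM in that bin and at 36411 against 33349 CPM in the highest. Because each group is 1 library of 2 pooled mice, treatment, mice and library cannot be told apart in any of these differences.

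**Figure D5:**
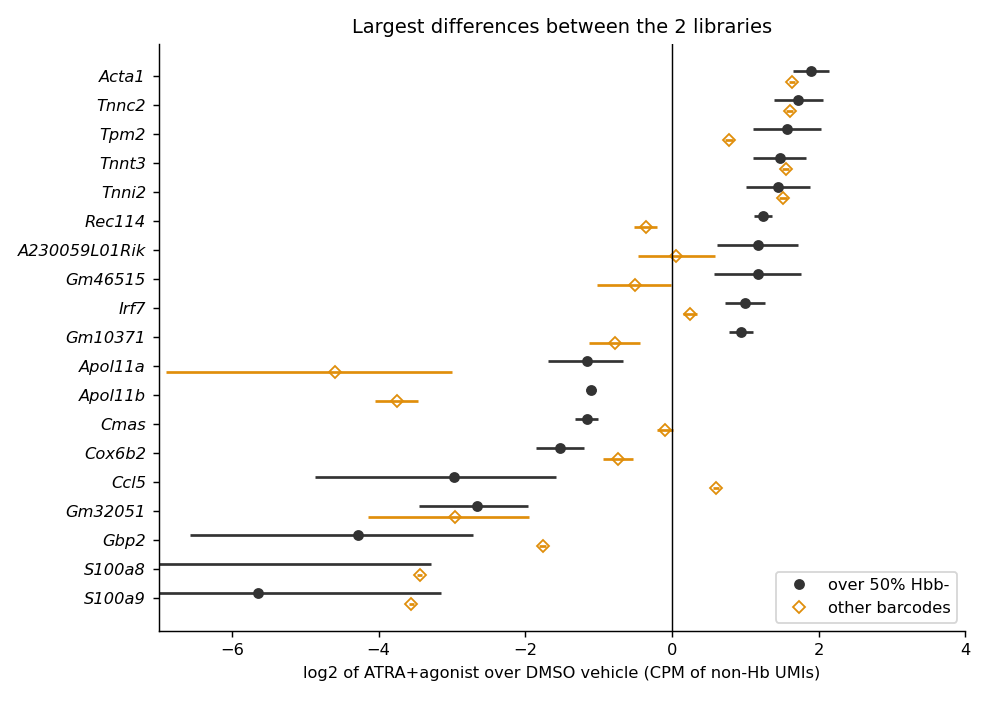
Log2 ratio of ATRA+agonist over DMSO vehicle (CPM of non-hemoglobin UMIs) for the genes with the largest ratios, in barcodes over 50% Hbb- UMIs (black circles) and in the other barcodes (orange diamonds), with exact 95% intervals cut at the left edge and no circle for S100a8, which had 0 UMIs with ATRA+agonist. Fiber genes such as Acta1 (1.90 and 1.64) lie on the same side of 0 in both sets, while Rec114 (1.24 and -0.36) and Ccl5 (-2.97 and 0.60) do not.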

How the data were processed

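Barcodes, features and raw UMI counts of 2 libraries were deposited by the authors as filtered 10x Genomics matrices (3′ chemistry), made with cellranger 7.2.0 on mm10 (GRCm38) per the file headers and labels. Each matrix lists only barcodes called as cells. Each library is 1 replicate of its group and pools 2 mice. The raw counts were summed over barcodes with over 50% Hbb- UMIs and over all other barcodes of the same library. Levels are CPM of non-hemoglobin UMIs (all Hbb-, Hba- and Hbq1 genes left out), and folds add 10 CPM. Genes with at least 20 UMIs in both libraries together were compared, and called means past 4-fold or 2-fold. Shares carry exact Clopper-Pearson 95% intervals, CPM exact Poisson intervals and ratios exact conditional intervals. No test was made.

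The text names the markers, the 4 most abundant and 2 most different genes of each erythroid list, the 10 most abundant, the 10 most different from other barcodes, the 5 highest and 5 lowest library ratios (at least 100 UMIs) and the 2 most abundant genes of the other lists. Library ratios among the 188 genes and genes by UMI bin were added after seeing the data, and so were the promoter and transcript searches. Further genes (Tfrc, Gata1, Klf1, Epor, Alox15, Pklr, Cdk1, Rpl41 (the 1 higher ribosomal protein gene), Myod1, Scx, Gp9, Gp1bb, Tubb1, Treml1, Hbq1a, Hbq1b and the embryonic globins) were chosen after their values were seen. The barcodes and gene lists were chosen with earlier results of these data known. Python 3.11.15, NumPy 2.4.6, SciPy 1.17.1 and pandas 2.3.3 were used. The intervals were tested on simulated counts with counting error only, so that spread among barcodes was not covered. All 167 gene positions looked up were found in GENCODE M21. Some items the rule would name are not reported here.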

Additional observations from a re-analysis of the deposited data

Results flagged for a closer look

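Of the genes named in the text, 16 had a log2 ratio of ATRA+agonist over DMSO vehicle with one sign in the red blood cell barcodes and the opposite sign in the other barcodes of the same libraries, with both counting intervals away from 0. With 1 library per group the difference between the sets of barcodes was not tested. The other barcodes were not free of red blood cell RNA, and its amount differed between the libraries. They included 458 (ATRA+agonist) and 1558 (vehicle) barcodes with 10% to 50% Hbb- UMIs. Alas2 was found in 1.75% and 5.57% of those with 300 or more genes. The part of this RNA in the ratios of the other barcodes was not tested for erythroid genes. Nor was it tested for Rec114, Gm46515, Gm10371 and the Fam220a entry below, each at least 4-fold higher in the red blood cell barcodes. Among erythroid genes the ratios were 0.10 for Alas2 (beside -1.95 in the other barcodes), 0.16 for Blvrb (-0.25), 0.52 for Ftl1 (-0.02), 0.35 for Fth1 (-0.28), 0.087 for Bpgm (-1.42), 0.057 for Gpx1 (-0.14), 0.44 for Prdx2 (-0.30), 0.32 for Car2 (-3.04) and 0.52 for Isg20 (-0.35). The signs for Alas2, Bpgm and Gpx1 turned when 5 bins of UMIs per barcode were weighted equally. Outside these lists the ratios were 1.24 for Rec114 (-0.36), 1.18 for Gm46515 (-0.51), 0.94 for Gm10371 (-0.78), 0.92 for the Fam220a entry ENSMUSG00000118332 (-0.43), -0.59 for AY036118 (0.06), -0.63 for Gsn (0.06) and -2.97 for Ccl5 (0.60).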

How the results depend on the processing

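No paired analysis was possible because each group is 1 library. No barcode had over 90% Hbb- UMIs, so that planned setting gave no value. Values are given as ATRA+agonist and vehicle, and the causes of the shifts were not tested. With over 50% of UMIs from all globin genes, the red blood cell barcodes were 22.2% and 46.7% of barcodes, the non-hemoglobin share 4.29% and 5.09%, Hbb-bt 13.7% and 14.9%, alpha globin 39.2% and 37.7%, erythroid lists 22.2% and 21.7%, other cell type lists 1.07% and 1.23% and mitochondrial genes 14.7% and 12.1%. With over 60% Hbb- UMIs, chosen after seeing the data, they were 7.92% and 22.5%, 2.59% and 3.00%, 14.2% and 15.2%, 36.0% and 35.2%, 35.7% and 35.1%, 0.293% and 0.290%, and 15.9% with vehicle for mitochondrial genes. With under 300 genes the non-hemoglobin share was 2.75% and 3.12%, Hbb-bt 14.0% and 15.0%, alpha globin 37.1% with vehicle, erythroid lists 34.3% and 34.0%, other cell type lists 0.309% and 0.310% and mitochondrial genes 19.0% and 17.0%. As means over barcodes, erythroid lists were 27.7% and 29.6%, other cell type lists 0.383% and 0.363% and mitochondrial genes 26.0% and 22.0%. The 188 genes at least 4-fold higher numbered 159 to 197 in the other settings. Genes at least 2-fold higher and lower with ATRA+agonist numbered 153 and 300 with all globins, 14 and 119 under 300 genes, 13 and 75 with 100 or more UMIs, and 95 and 323 with 5 UMI bins weighted equally, a setting added after seeing the data. The higher genes numbered 24 with over 60% Hbb- UMIs, 71 with no minimum and 81 with median-of-ratios scaling. Equal bins turned the log2 ratios of Alas2 (-0.032), Bpgm (-0.089), Gpx1 (-0.17) and Oaz1 (-0.040), and median-of-ratios scaling those of Fech (0.017), Mkrn1 (0.10), Bnip3l (0.051), Gm42418 (0.0083) and Mpp1 (0.045). Among named genes whose intervals included 0, it also turned those of Slc25a39 (-0.059 to 0.15), Glrx5 (-0.066 to 0.14), Cd24a (-0.032 to 0.17) and Mpc2 (-0.092 to 0.11), and equal bins those of Ncoa4 (0.020 to -0.040) and Pf4 (-0.15 to 0.43), which also turned with under 300 genes (-0.014 and 0.21).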
